A study of Mus musculus with 12 samples.

Results

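Hepatic stellate cells and the matrix they make were followed here through 38 genes, 7 of them markers of the quiescent stellate cell and 31 of them genes of activation, fibrosis and extracellular matrix. The genes were taken by name, not by their values, and all 38 were found among the 24910 genes of the expression table, where *Ctgf* stands for the gene now also called *Ccn2*. Livers of male C57BL/6J wild-type mice were profiled by RNA-seq and by FAIRE-seq, which enriches DNA that is not wrapped in nucleosomes. There were 3 groups of 2 mice, and RNA and chromatin came from the same livers, so that each comparison between groups set 2 mice against 2. Control mice ate standard chow for 28 weeks and had no surgery. Sham and VSG mice ate a high-fat diet (60 kcal% fat) from 8 weeks of age, had surgery after 14 weeks and returned to that diet for a further 14 weeks, apart from 4 days of liquid food after the operation. In VSG (vertical sleeve gastrectomy) about 80% of the stomach was removed, while in Sham mice the stomach was only isolated and pressed. Diet and operation therefore cannot be told apart between Control mice and either of the other groups, and only the comparison of VSG with Sham mice holds the diet constant.

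Stellate cells lie between hepatocytes and the sinusoidal endothelium. At rest they store vitamin A as retinyl esters, and after injury they lose this store, become contractile and turn into the main source of fibrillar collagen in the liver. Signals of the TGF-beta and PDGF families drive that activation, lysyl oxidases cross-link the collagen, and metalloproteinases and their tissue inhibitors (TIMPs) decide how much matrix is removed. Whole liver is mostly hepatocyte RNA, so the level of such a gene depends both on how many of its cells are present and on how much each expresses, and fewer cells of a type cannot be told apart from less RNA per cell.

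Levels are given as FPKM, which scales fragments by transcript length and by library size, summed over the transcripts of a gene. Of the 38 genes, 22 reached 1 FPKM in at least 2 mice and were tested with limma on log2(FPKM + 1), at a false discovery rate of 10%, and these were 5 of the 7 quiescent markers and 17 of the 31 other genes. The 16 genes that were not tested were *Hgf*, *Des*, *Pdgfra*, *Pdgfrb*, *Acta2*, *Tagln*, *Col5a1*, *Col5a2*, *Col6a2*, *Col6a3*, *Lox*, *Loxl1*, *Mmp2*, *Mmp14*, *Timp1* and *Timp3*. Of the tested genes, *Colec10*, *Col6a1* and *Col1a1* met this filter only with the VSG mice counted. *Ctgf*, *Reln*, *Col1a2* and *Col14a1* met it only with the Control mice counted. Counts in which these genes are high in that group are not independent of the filter. The spacing of the lowest values put the depth at about 19100000 to 44100000 reads per mouse, lowest in Sham mouse 1 and highest in VSG mouse 1. Of the 3 genes that mark the cells, *Lrat* ranged from 0.659 to 2.18 FPKM, *Reln* from 0.318 to 2.97 and *Col1a1* from 0.510 to 2.92, so that all were detected in every liver, at low levels.

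The promoters of 6 of the genes are shown first, because accessible chromatin was listed there in some groups and not in others, or because their RNA levels are described in detail. Each line holds the 150 bases before the first annotated start site in build NCBIM37 (mm9), read from 5′ to 3′ on the strand of the gene. Capitals mark matches, on either strand, to 5 motifs, none of which overlapped another in these windows. The TATA box was searched as TATAAA, and the GC box was searched as GGGCGG. For AP-1 factors the letters were TGANTCA, where N is any base. For TEAD factors they were GGAATG, and for SMAD proteins they were CAGACA.
Lrat: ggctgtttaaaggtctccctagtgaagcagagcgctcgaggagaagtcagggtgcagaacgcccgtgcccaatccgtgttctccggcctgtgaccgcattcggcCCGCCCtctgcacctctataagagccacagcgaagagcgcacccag
Ecm1: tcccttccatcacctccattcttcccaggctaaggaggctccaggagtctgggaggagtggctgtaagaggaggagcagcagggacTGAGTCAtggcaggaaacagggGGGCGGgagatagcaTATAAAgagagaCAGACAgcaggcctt
Hgf: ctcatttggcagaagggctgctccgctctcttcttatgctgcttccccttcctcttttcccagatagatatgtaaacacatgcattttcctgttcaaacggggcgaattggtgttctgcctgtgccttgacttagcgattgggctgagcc
Ctgf: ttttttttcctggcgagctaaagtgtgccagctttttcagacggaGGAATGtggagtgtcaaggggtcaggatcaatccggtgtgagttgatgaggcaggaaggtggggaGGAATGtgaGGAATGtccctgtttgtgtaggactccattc
Col1a1: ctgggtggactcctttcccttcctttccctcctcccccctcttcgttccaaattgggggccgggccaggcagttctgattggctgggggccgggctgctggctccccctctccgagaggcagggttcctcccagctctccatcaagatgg
Col3a1: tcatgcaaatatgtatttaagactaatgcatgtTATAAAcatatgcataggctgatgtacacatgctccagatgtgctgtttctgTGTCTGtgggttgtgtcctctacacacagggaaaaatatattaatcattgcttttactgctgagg

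These windows lie at chr3:82707896-82708045 (*Lrat*, minus strand), chr3:95543493-95543642 (*Ecm1*, minus strand), chr5:16059218-16059367 (*Hgf*, plus strand), chr10:24315098-24315247 (*Ctgf*, plus strand), chr11:94797388-94797537 (*Col1a1*, plus strand) and chr1:45368233-45368382 (*Col3a1*, plus strand). The *Ctgf* window held GGAATG, the core of the site bound by TEAD factors, 3 times, at 105, 40 and 31 bases before the start. Of the windows of 18076 genes, 6.64% held GGAATG at all and 6 held it 3 times or more, 1 of them that of *Ctgf*. Among the 38 genes, CAGACA, a core of sites bound by SMAD proteins, was found before 9 (*Col3a1*, *Col5a1*, *Col5a2*, *Des*, *Ecm1*, *Lox*, *Loxl1*, *Pdgfrb* and *Sparc*), or 23.7% against 8.71% of all windows. The other motifs were as frequent before the 38 genes as before all genes, or nearly so, at 39.5% against 38% for the GC box, 7.89% against 7.57% for the TATA box, 5.26% against 3.68% for AP-1 and 7.89% against 6.64% for the TEAD core. These matches are a description of the letters and say nothing of binding.

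The mean of each quiescent marker was lowest in Sham livers, though only slightly for some. Control and Sham mice overlapped for *Colec10*, *Hgf* and *Des*, and the Sham mean of *Rgs5* was 0.905 of the Control mean. All 7 had a lower mean in Sham than in Control mice and a higher mean in VSG than in Sham mice, and no such difference passed the false discovery rate. Of all genes tested, 52.8% had a higher mean in Sham than in Control mice and 59.6% a higher mean in VSG than in Sham mice. *Ecm1* stood apart in size, with a Sham mean that was 0.108 of the Control mean, while the VSG mean of *Rgs5* was 4.31 times that of Sham and 3.90 times that of Control mice. Sinusoidal endothelial markers were low in Sham livers too, with values given further on. From Control to VSG mice, the mean log2(FPKM + 1) was higher for 6 of the 7 quiescent markers and lower for 6 of 10 endothelial markers. Of all genes tested, 61.3% were higher in this comparison. Among the 6 quiescent markers, the log2 changes of *Des* (0.02) and *Reln* (0.10) were small.

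*Ecm1* encodes a secreted glycoprotein that restrains the release of TGF-beta from its latent form, and hepatocytes express it too. Its gene lies at chr3:95538070-95543492, and its level was 42.3 and 26.5 FPKM in Control livers, 2.97 and 4.48 in Sham livers and 18.4 and 34.5 in VSG livers. Both Sham mice lay far below all 4 others, and the Control and VSG mice overlapped. A transcript of *Ecm1* was listed at 0 in Sham mouse 1. The other was at 2.97 and 1.61 FPKM in Sham mice and 6.04 to 24.1 in the other mice. The group means were 34.4 ± 11.2 FPKM (SD, n = 2) for Control, 3.73 ± 1.07 for Sham and 26.4 ± 11.4 for VSG mice. The log2 change was -2.89 (SE 0.42) from Control to Sham, with an unadjusted p of 0.000986 and an adjusted p of 0.159 from limma. From Sham to VSG mice it was 2.49 (SE 0.42), with a limma adjusted p of 0.481. Over 14 alternative analyses the adjusted p from limma ranged from 0.131 to 0.620 for the first and from 0.206 to 0.942 for the second.

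*Rgs5* encodes a regulator of G-protein signalling found in pericytes and stellate cells. The gene lies at chr1:171585632-171625944, and its FPKM was 1.92 and 2.14 in Control mice, 1.89 and 1.79 in Sham mice and 7.06 and 8.78 in VSG mice. Both VSG mice were far above the other 4, and the Sham mice lay just below the Control mice. The VSG mean of 7.92 ± 1.21 FPKM (SD, n = 2) compared with 1.84 ± 0.0722 in Sham and 2.03 ± 0.157 in Control mice. The log2 change was 1.65 (SE 0.22) against Sham, with an adjusted p of 0.392 by limma, and 1.55 (SE 0.22) against Control, with an adjusted p of 0.190 by limma. Both had an unadjusted p under 0.05 in every one of the alternatives, with adjusted p-values from limma of 0.166 to 0.807 and 0.170 to 0.729.

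*Lrat* encodes lecithin retinol acyltransferase, which makes the retinyl esters that stellate cells store, and *Reln* encodes reelin, a secreted glycoprotein that in liver marks these cells. *Lrat* was measured at 1.29 and 1.19 FPKM in Control, 0.659 and 0.767 in Sham and 1.42 and 2.18 in VSG mice. The groups were fully separated, with Sham lowest and VSG highest, on an estimated 65 to 323 reads per mouse. For *Reln* the values were 1.59 and 1.62 FPKM in Control, 0.318 and 0.647 in Sham and 0.960 and 2.97 in VSG mice. The Sham mice were lowest for *Reln* as well, while the VSG mice lay on either side of Control. From Sham to VSG the log2 change was 0.70 (SE 0.26) for *Lrat* and 0.92 (SE 0.40) for *Reln*, each with an adjusted p of 0.944 in limma.

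The remaining quiescent markers were *Colec10*, *Hgf* and *Des*. *Colec10*, which encodes a collectin, was at 0.311 and 1.18 FPKM in Control, 0.559 and 0.508 in Sham and 1.30 and 2.55 in VSG mice, and its VSG mice were above all 4 others. *Hgf*, the hepatocyte growth factor that stellate cells supply to hepatocytes, was at 0.215 and 0.506 FPKM in Control, 0.169 and 0.284 in Sham and 0.303 and 0.755 in VSG mice. *Des*, the intermediate filament desmin, was at 0.677 and 0.562 FPKM in Control, 0.237 and 0.737 in Sham and 0.534 and 0.750 in VSG mice. The Sham and VSG mice did not overlap for *Hgf*, whereas for *Des* Sham mouse 2 reached the level of the VSG mice. Neither *Hgf* nor *Des* was tested.

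**Figure D1:**
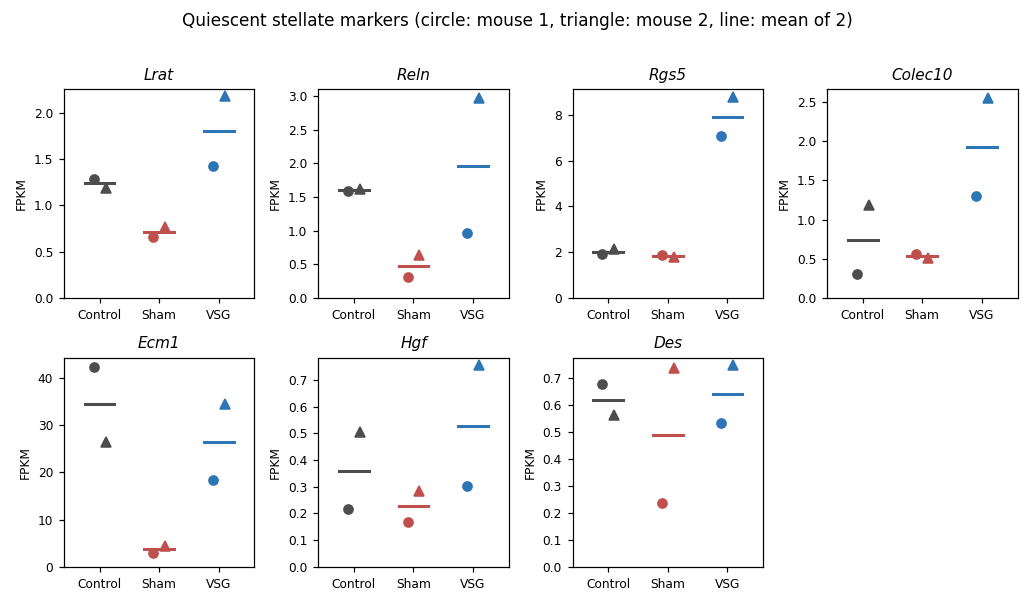
FPKM of the 7 quiescent stellate markers in each mouse, with 1 panel per gene and a linear axis from 0. Circles are mouse 1, triangles are mouse 2 and the line is the mean of 2 mice. Both Sham mice are the lowest for *Lrat*, *Reln* and *Ecm1*, and both VSG mice are the highest for *Rgs5* and *Colec10*.

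The fibrosis and matrix genes did not share 1 pattern. The mean of *Col3a1* in VSG livers was 3.28 times that of Sham and 3.07 times that of Control livers, *Ctgf* was low in both groups on the high-fat diet, and *Dcn* followed the quiescent markers. A further set, with *Col1a1*, *Col4a1*, *Lum*, *Fn1* and *Timp1*, was high in 1 of the 2 Sham mice. No member passed the false discovery rate.

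Among the activation signals and receptors, *Ctgf* encodes connective tissue growth factor, a target of TGF-beta and of YAP acting through TEAD factors. It was at 3.20 and 4.04 FPKM in Control mice, 0.664 and 1.12 in Sham mice and 0.275 and 0.784 in VSG mice. Both high-fat groups lay below both Control mice, and they overlapped each other. The log2 change was -1.29 (SE 0.30) in Sham and -1.61 (SE 0.30) in VSG mice against the same Control mice, each with an adjusted p of 0.298 in limma. *Tgfb1*, the ligand, was highest in VSG mouse 2 at 2.86 FPKM and ranged from 0.923 to 1.59 in the other mice, and its receptor *Tgfbr2* was between 4.49 and 6.28 FPKM apart from 1.62 in VSG mouse 1. The PDGF receptors *Pdgfra* (0.115 to 0.611 FPKM) and *Pdgfrb* (0.320 to 0.973 FPKM) were both lowest in Sham mouse 1.

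Of the contractile and cytoskeletal genes, *Acta2*, the smooth muscle actin that is the usual label of an activated stellate cell, was between 0.143 and 0.380 FPKM in 5 mice and 1.20 in VSG mouse 1. These are an estimated 4 to 84 reads per mouse, and the Control and Sham mice overlapped. *Vim*, which encodes vimentin, was between 5.50 and 9.0 FPKM. *Tagln*, the actin-binding protein transgelin, was listed at 0 in all 6 mice, although a FAIRE peak was listed near its start in all groups, and a listed 0 can be a failed estimate in values of this kind.

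*Col1a1* and *Col1a2* encode the 2 chains of type I collagen. *Col1a1* was at 0.628 and 0.510 FPKM in Control, 0.638 and 2.92 in Sham and 1.79 and 1.20 in VSG mice. Sham mouse 2 had the highest value, Sham mouse 1 that of a Control liver, and the VSG mice fell between. The log2 change was 0.69 (SE 0.47) from Control to Sham and 0.66 (SE 0.47) from Control to VSG mice, with limma adjusted p-values of 0.623 and 0.715. *Col1a2* ranged from 0.707 to 1.99 FPKM and did not share this order. The ratio of *Col1a1* to *Col1a2* was 0.579 and 0.454 in Control, 0.901 and 3.03 in Sham and 2.25 and 0.603 in VSG mice, so that the 2 chains of 1 protein were not in a fixed proportion across the livers.

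*Col3a1*, the chain of type III collagen, separated VSG mice from both other groups. Its level was 1.07 and 1.33 FPKM in Control, 1.32 and 0.912 in Sham and 3.42 and 3.92 in VSG mice. Control and Sham mice overlapped and both VSG mice were clear of them. The VSG mean was 3.67 ± 0.358 FPKM (SD, n = 2), against 1.12 ± 0.291 in Sham and 1.20 ± 0.185 in Control mice. The log2 change was 1.15 (SE 0.24) against Sham, with an adjusted p of 0.696 in limma, and 1.09 (SE 0.24) against Control, with an adjusted p of 0.334 in limma. *Col5a1* and *Col5a2*, chains of the minor fibrillar collagen V, stayed between 0.0651 and 0.428 FPKM.

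Among the network collagens, *Col4a1* encodes a basement membrane chain and was at 1.75 and 2.54 FPKM in Control, 3.18 and 14.3 in Sham and 6.61 and 3.32 in VSG mice. All 4 mice on the high-fat diet were above Control, with the highest value in Sham mouse 2. The log2 change from Control to Sham was 1.36 (SE 0.69), with a limma adjusted p of 0.536, and it was 0.42 to 2.29 over the alternatives, where the extremes came from leaving out 1 Sham mouse or the other. *Col4a2*, the partner gene, which starts within a few bases of *Col4a1* on the opposite strand of chromosome 8, was at 1.33 FPKM in both Control mice, 1.12 in Sham mouse 1, 1.55 in VSG mouse 2 and listed at 0 in the remaining 2, the very mice in which *Col4a1* was highest. A similar gap concerned *Mmp14*, a membrane metalloproteinase listed at 0 in 5 mice and at 5.95 FPKM (an estimated 404 reads) in Control mouse 1, and *Col14a1*, listed at 0 in VSG mouse 2 and between 0.727 and 2.12 FPKM elsewhere. Where such a 0 of these 3 genes enters a count of separated groups or of mice 2-fold apart, the gene is named. Medians over members include the values as listed.

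The microfibrillar collagen VI gene *Col6a1* was at 0.878 and 1.04 FPKM in Control, 0.290 and 0.618 in Sham and 1.58 and 1.59 in VSG mice. It kept the order of the quiescent marker *Lrat*, with 3 separate groups. From Sham to VSG mice the log2 change was 0.84 (SE 0.25), with an adjusted p of 0.944 in limma. *Col6a2* (0.252 to 1.03 FPKM) and *Col6a3* (0.177 to 0.834 FPKM) were lowest in Sham mouse 1. Both VSG mice were above both Control mice for *Col6a2*, and no other pair of groups was separated for either gene.

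The proteoglycans and glycoproteins held the most abundant members. *Dcn*, the small proteoglycan decorin that coats collagen fibrils and binds TGF-beta, was at 40.6 and 41.7 FPKM in Control, 13.9 and 23.8 in Sham and 41.1 and 53.3 in VSG mice. Both Sham mice were below all 4 others, and the remaining groups overlapped. The log2 change was -1.13 (SE 0.32) from Control to Sham and 1.32 (SE 0.32) from Sham to VSG mice, with limma adjusted p-values of 0.361 and 0.830. *Bgn*, the related biglycan, gave 21.1 and 18.9 FPKM in Control, 6.17 and 14.4 in Sham and 16.0 and 26.4 in VSG mice, the same order with a limma adjusted p of 0.509 and 0.944. *Sparc*, a collagen-binding glycoprotein, was at 9.30 and 7.69 FPKM in Control, 4.34 and 6.95 in Sham and 10.2 and 10.7 in VSG mice. Its 3 groups were fully separated for the summed transcripts. The log2 change of *Sparc* from Sham to VSG mice was 0.82 (SE 0.27), with an adjusted p of 0.944 in limma. A transcript of *Sparc* was listed at 0 in Sham mouse 1, and the other overlapped between Sham and VSG mice. With the highest transcript alone the log2 change was 0.43.

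*Lum* and *Fn1* behaved differently from *Dcn*, although *Lum* encodes lumican, a proteoglycan of the same family. *Lum* was at 1.45 and 1.58 FPKM in Control, 0.697 and 4.83 in Sham and 2.50 and 2.95 in VSG mice, so that the 2 Sham mice were the lowest and the highest of all. *Fn1*, fibronectin, which hepatocytes also secrete into plasma, was at 188 and 240 FPKM in Control, 165 and 431 in Sham and 194 and 226 in VSG mice, again with the Sham mice at both ends. The ratio of *Lum* to *Dcn* was 0.203 in Sham mouse 2 and between 0.0358 and 0.0609 in the other 5 mice. Per-mouse values of *Lum*, *Fn1*, *Bgn*, *Timp1* and *Timp3* are given because of what their values showed, and not by the rule for the other genes.

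Cross-linking enzymes were scarce, with *Lox* at or below 0.0775 FPKM and listed at 0 in Sham mouse 1, and *Loxl1* between 0.0499 and 0.519 FPKM. Among the proteases and their inhibitors, *Mmp2*, a gelatinase, ranged from 0.0735 FPKM in Sham mouse 1 to 0.924 in Sham mouse 2. *Timp1*, an inhibitor that stellate cells and inflamed tissue release, was at 0.116 and 0.186 FPKM in Control, 0.947 and 5.76 in Sham and 0.265 and 0.758 in VSG mice. The 3 groups were separated for *Timp1*, with Sham highest, which is the reverse of the quiescent markers. *Timp3*, the inhibitor bound to matrix, was at 1.03 and 0.977 FPKM in Control, 0.0733 and 0.127 in Sham and 0.430 and 0.767 in VSG mice, the Sham values resting on an estimated 6 and 19 reads. *Timp1* and *Timp3* missed the filter, and without a filter on low values limma gave adjusted p-values from Control to Sham of 0.479 and 0.203. *Timp2* was at 1.62 and 1.56 FPKM in Control, 0.580 and 1.75 in Sham and 1.55 and 2.30 in VSG mice, with no separation.

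**Figure D2:**
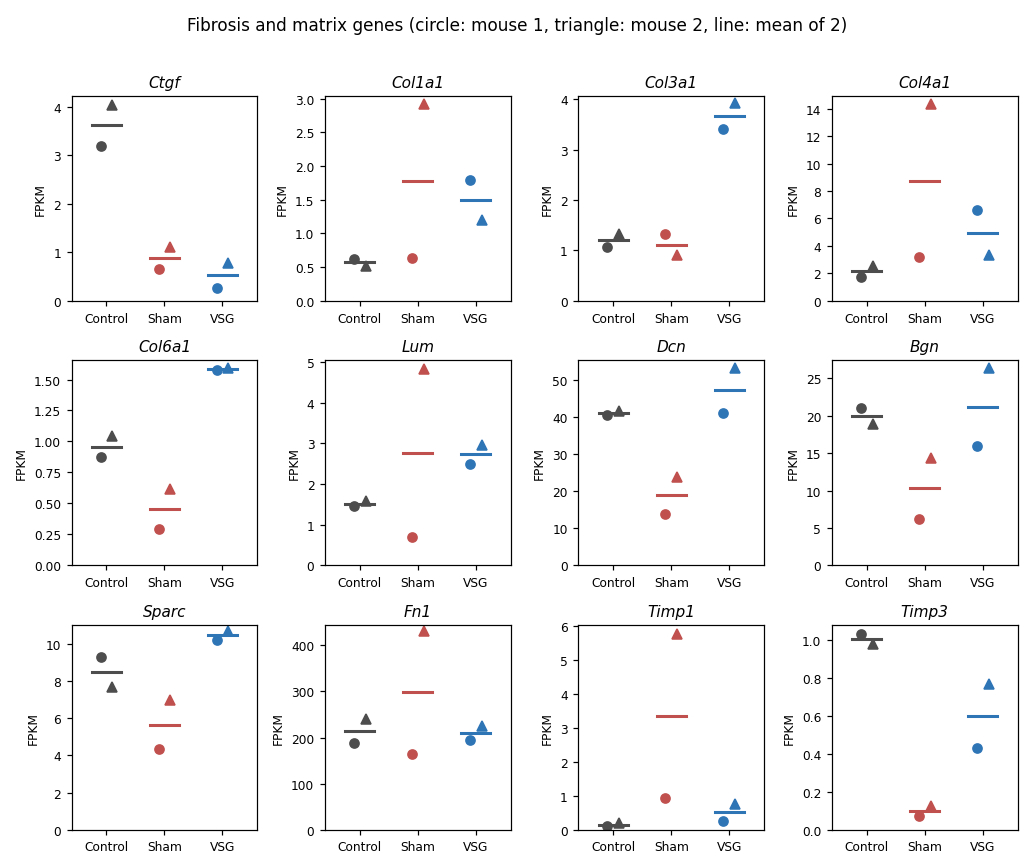
FPKM of 12 fibrosis and matrix genes in each mouse, with 1 panel per gene and a linear axis from 0. Circles are mouse 1, triangles are mouse 2 and the line is the mean of 2 mice. For *Col1a1*, *Col4a1*, *Lum*, *Fn1* and *Timp1* the triangle of Sham is the highest point, for *Dcn* and *Timp3* both Sham mice are the lowest, and for *Col3a1* both VSG mice are the highest.

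More of these genes differed between the 2 Sham livers than between the 2 livers of another group. Listed genes at 1 FPKM or more in at least 1 of the 2 mice of a group were compared. Between the Sham mice 9 of 18 were at least 2-fold apart (50%, against 29.3% of tested genes at that level). The numbers were 6 of 22 between the VSG mice (27.3% against 22.9%) and 2 of 23 between the Control mice (8.70% against 15.3%). A listed 0 placed *Col4a2* among those of Sham, *Col4a2* and *Col14a1* among those of VSG and *Mmp14* among those of Control mice. Of the 37 genes above 0 in some mouse, 24 were lowest in Sham mouse 1, which was lowest for 18.9% of all tested genes, and 17 were highest in VSG mouse 2, which was highest for 23.3%. Sham mouse 2 was highest for 10, all of them fibrosis and matrix genes, and for 15.8% of all tested genes. The 37 genes include members that missed the filter, whereas the shares beside them are over tested genes only. Sham mouse 1 was also the shallowest library. The summed level of 4 mesothelial markers (*Msln*, *Upk3b*, *Wt1* and *Gpm6a*) was highest in Sham mouse 2, at 1.96 FPKM, against 0.0558 in Sham mouse 1, 0.319 and 0.339 in Control and 0.267 and 0.490 in VSG mice. *Msln* and *Upk3b* were listed at 0 in Sham mouse 1, all 4 markers were under 1 FPKM in every mouse, and the part of this difference in the matrix genes was not tested.

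**Figure D3:**
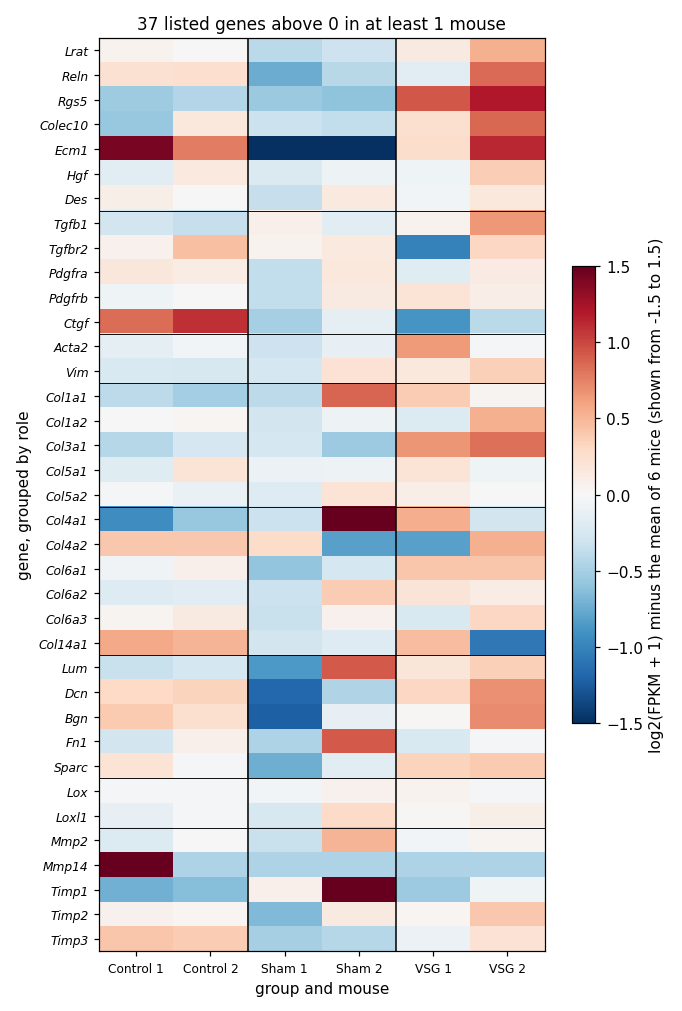
Each row is 1 of the 37 listed genes above 0 in some mouse and each column a mouse, and the colour is log2(FPKM + 1) minus the mean of the 6 mice, from blue (lower) to red (higher). Lines separate the groups and the roles of the genes. The column of Sham mouse 1 is mostly blue, that of VSG mouse 2 mostly red, and that of Sham mouse 2 is red for some matrix genes, blue for others such as *Dcn* and *Col3a1*, and blue for most quiescent markers.

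From Control to Sham mice, which asks what the high-fat diet with the control operation did, 0 of the 22 tested genes passed the false discovery rate in limma, as 0.284% of the 9869 genes tested did. At an unadjusted p under 0.05 there were 0 higher, where 6.57% of all genes tested lay, and 3 lower, against 4.34%. These 3 were *Ecm1*, *Ctgf* and *Dcn*. Both Sham mice lay above both Control mice for 3 of the 22 (25.4% of all genes tested), namely *Col1a1*, *Col4a1* and *Tgfb1*. Both lay below for 12 (20.4% of all), 4 of them among the 5 tested quiescent markers and the others *Bgn*, *Col14a1*, *Col1a2*, *Col4a2*, *Col6a1*, *Ctgf*, *Dcn* and *Sparc*, where *Col4a2* has a listed 0 in Sham mouse 2. Leaving out Sham mouse 1 keeps *Col4a2* among those below, with that 0 as its only Sham value. *Ctgf*, *Reln*, *Col1a2* and *Col14a1*, among the 12, met the filter only with the Control mice counted. Without Sham mouse 1 the counts were 7 above (39.7% of all) and 13 below (38% of all), and without Sham mouse 2 they were 3 (46.7%) and 17 (35.2%). The median log2 change over all 7 quiescent markers was -0.14 and over all 31 other genes -0.10. Over the members tested it was -0.39 and -0.20, against 0.04 over all genes tested. Without Sham mouse 1, 4 genes (*Col1a1*, *Col4a1*, *Fn1* and *Lum*) were higher at an unadjusted p under 0.05 (5.81% of all genes) and *Ecm1*, *Ctgf* and *Dcn* were lower (7.76%). Without Sham mouse 2 there were 0 higher (9.5% of all genes) and 5 lower (9.22%), *Bgn* and *Sparc* beside the same 3. Without Control mouse 2, *Ecm1* was the 1 gene lower (1.58% of all genes), and without Control mouse 1 *Ecm1* and *Ctgf* were (1.83%).

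From Sham to VSG mice, which asks what sleeve gastrectomy did on an unchanged diet, 0 of the 22 passed the false discovery rate in limma, as 0.0507% of all genes tested did. An unadjusted p under 0.05 was reached by 7 higher genes, against 3.25% of all, and by 0 lower genes, against 1.60%. The 7 were the quiescent markers *Lrat*, *Rgs5* and *Ecm1* and the matrix genes *Col3a1*, *Col6a1*, *Dcn* and *Sparc*. Both VSG mice lay above both Sham mice for 10 of the 22 (18.5% of all), including all 5 tested quiescent markers, and below them for 0 (9.78% of all). *Colec10* and *Col6a1* among the 10, and *Col6a1* among the 7, met the filter only with the VSG mice counted. Without Sham mouse 1 the counts were 11 above (41.6% of all) and 5 below (26% of all), the latter *Col1a1*, *Col4a1*, *Ctgf*, *Fn1* and *Lum*. Without Sham mouse 2 they were 17 (36.2%) and 0 (30.5%). Over all members the median log2 change was 0.90 for the 7 quiescent markers and 0.13 for the 31 others. Over the members tested it was 0.92 and 0.28, beside 0.08 for all genes tested. Leaving out VSG mouse 2 brought the median of the quiescent markers to 0.50 and the number of genes at an unadjusted p under 0.05 to 3 (*Ecm1*, *Rgs5* and *Col3a1*, against 1.58% of all genes), and leaving out Sham mouse 2 brought the median of the others to 0.37 and the number to 9 (8.13% of all genes). Without Sham mouse 1, *Col4a1* and *Fn1* were lower in VSG mice at an unadjusted p under 0.05 (2.54% of all genes) and 4 genes were higher (9.77%), *Col3a1*, *Dcn*, *Ecm1* and *Rgs5*.

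Between VSG and Control mice, 0 of the 22 passed the false discovery rate in limma (0.284% of all genes tested). *Rgs5* and *Col3a1* were the 2 genes higher at an unadjusted p under 0.05 (7.02% of all), and *Ctgf* was the 1 lower (2.53% of all). Both VSG mice lay above both Control mice for 11 of the 22 (33.7% of all) and below them for 2, *Ctgf* and *Col14a1* (14.8% of all), of which *Col14a1* has a listed 0 in VSG mouse 2. The 11 include *Colec10*, *Col6a1* and *Col1a1*, which met the filter only with the VSG mice counted. *Ctgf* and *Col14a1* met it only with the Control mice counted. The median log2 change was 0.16 for the quiescent markers and 0.13 for the other genes. Over the members tested it was 0.31 and 0.18, and over all genes tested 0.13. With FPKM rescaled by the median ratio the last became -0.01, and the medians over all quiescent markers and all other members became 0.11 and 0.05. The 3 comparisons share their mice, and their values are set side by side only.

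**Figure D4:**
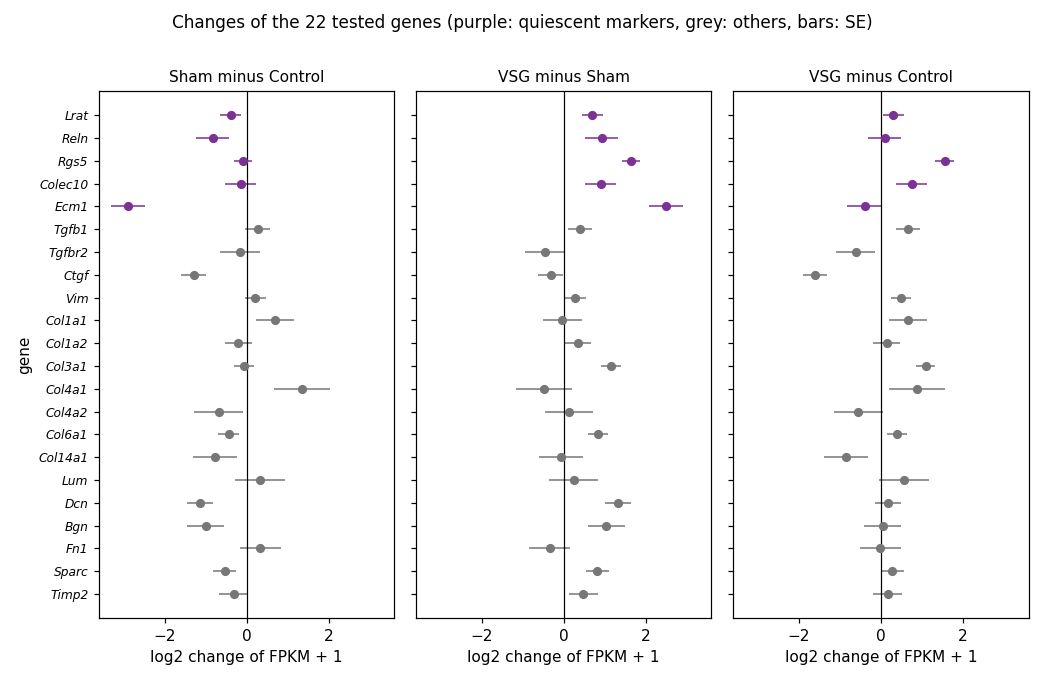
Log2 change of FPKM + 1 for the 22 tested genes in the 3 comparisons, 1 panel each, with bars of 1 SE from limma. Purple points are quiescent markers and grey points the other genes. Quiescent markers lie at or left of 0 from Control to Sham mice and right of 0 from Sham to VSG mice, with *Ecm1* farthest out, and grey points lie on both sides.

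Genes of the same cells and pathways outside the 38 were counted in the same way, and 0 passed the false discovery rate in any comparison by limma. Of 14 other stellate markers, 11 had a lower mean in Sham than in Control mice and 12 a higher mean in VSG than in Sham mice, with median log2 changes of -0.15 and 0.32. Over all genes tested, 52.8% had a higher mean in Sham than in Control mice and 59.6% in VSG than in Sham mice. At an unadjusted p under 0.05 in limma, *Hand2* (-0.78) and *Adamtsl2* (-0.94) were lower in Sham mice, and *Cygb* was higher in VSG than in Sham mice (1.41). *Adamtsl2* met the filter only with the Control mice counted, and *Cygb* only with the VSG mice counted. At an unadjusted p under 0.05, 6.57% of all genes tested were higher and 4.34% lower from Control to Sham mice. From Sham to VSG mice 3.25% were higher and 1.60% lower. These shares also stand beside the genes of the next lists. *Steap4*, also an inflammation-induced gene of hepatocytes, went the other way, at 162 and 132 FPKM in Control, 140 and 266 in Sham and 58.0 and 61.3 in VSG mice, with a log2 change of -1.68 from Sham to VSG and a limma adjusted p of 0.712. The largest difference on this list, for *Angptl6*, rested on a listed 0 in Sham mouse 1.

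Of 19 other genes of the TGF-beta and PDGF pathways, 10 were tested. *Ltbp4*, a binding protein of latent TGF-beta, was lower in Sham mice (-1.40) and higher in VSG than in Sham mice (1.30), at unadjusted p-values under 0.05, with a listed 0 in Sham mouse 1. *Smad4*, with the largest VSG to Control difference on the list, was at -0.39. Of 35 other matrix genes, 15 were tested. *Pcolce*, a collagen-processing factor, was higher (0.80) and *Mgp* lower (-1.0) in Sham than in Control mice, and *Postn*, periostin, was higher in VSG than in Sham mice (1.08), each at an unadjusted p under 0.05. *Postn* met the filter only with the VSG mice counted. *Col18a1*, with the largest Sham to Control difference, was at 20.1 FPKM in Sham mouse 1 and 114 in Sham mouse 2, around 88.7 and 108 in Control mice.

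Markers of other liver cells were counted beside these genes. For comparison, the mean of 52.8% of all genes tested was higher in Sham than in Control mice. That of 59.6% was higher in VSG than in Sham mice. All 10 sinusoidal endothelial markers had a lower mean in Sham than in Control mice and 8 had a higher mean in VSG than in Sham mice, and their summed level was 25.9 to 54.2 FPKM in Control, 9.43 to 12.4 in Sham and 34.2 to 39.3 in VSG mice. *Oit3* was listed at 0 in both Sham mice and VSG mouse 2, and *Stab1*, *Stab2*, *Pecam1* and *Kdr* at 0 in 1 or 2 mice each. Of 11 Kupffer cell markers, 10 had a higher mean in Sham than in Control mice, with sums of 36.3 to 52.9, 128 to 136 and 105 to 342 FPKM in Control, Sham and VSG mice. The 5 neutrophil markers summed to 4.91 to 12.4, 40.5 to 44.6 and 16.3 to 21.1 FPKM in the same order, with *Ly6g* at 0 in every mouse. The 8 smooth muscle and portal fibroblast markers summed to 2.33 to 2.74, 3.40 to 4.41 and 3.80 to 4.66 FPKM, and only *Entpd2* was tested. *Entpd2* had a mean of 0.964 FPKM in Control and 2.83 in Sham mice, whereas the other 7 had a lower mean in Sham than in Control mice. The 5 lymphocyte markers summed to 0.426 to 3.88 FPKM. The 6 cholangiocyte markers ranged from 30.7 to 186 FPKM, nearly all of it *Spp1*, and the 5 hepatocyte markers summed to 10500 in Sham mouse 2 and 16800 to 20800 elsewhere. On the hepatocyte list *Tat*, tyrosine aminotransferase, passed the false discovery rate, lower by log2 -2.84 in Sham and -2.47 in VSG mice, with limma adjusted p-values of 0.0445 and 0.0679. The part of any of these in the stellate and matrix genes was not tested.

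At the level of chromatin, few of the 38 genes had an accessible promoter in whole liver. A FAIRE peak lay within 1000 bp of an annotated start site for 10 of 38 genes in the Control list, 12 in the Sham list and 13 in the VSG list. That was 26.3%, 31.6% and 34.2%, against 55.1%, 55.0% and 56.5% of 18076 genes. Each list combines the 2 mice of a group, so these numbers carry no replicate error and were not tested. Among genes with a mean of 1 to 5 FPKM a promoter peak was listed for 87.5%, 87.0% and 88.7%, and for 3, 4 and 5 of the 15 members at that level. Of the 3 members at 20 FPKM or more, *Ecm1* and *Fn1* had a promoter peak in all lists and *Dcn* had none in any, whereas 93.2% to 94.3% of genes at that level had one.

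**Figure D5:**
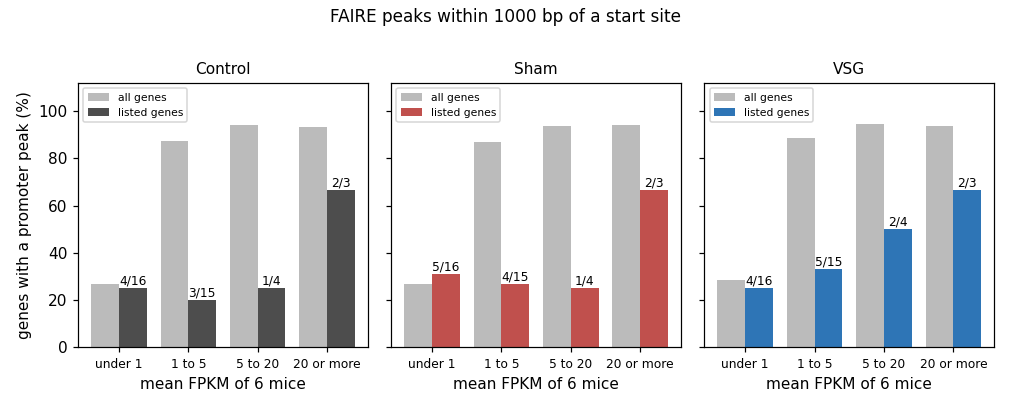
Percentage of genes with a FAIRE peak within 1000 bp of a start site, by mean FPKM over 6 mice, 1 panel per group. Grey bars are all genes and coloured bars the listed genes, with their numbers printed above. From 1 FPKM upwards the coloured bars are lower than the grey ones in each panel, and under 1 FPKM the bars are alike.

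Peaks were listed at the promoters of *Ecm1*, *Tgfb1*, *Tgfbr2*, *Pdgfra*, *Tagln*, *Vim*, *Col1a1*, *Fn1*, *Mmp14* and *Timp3* in all 3 groups. No list had a promoter peak for *Reln*, *Rgs5*, *Colec10*, *Des*, *Pdgfrb*, *Acta2*, *Col1a2*, *Col3a1*, *Col5a1*, *Col5a2*, *Col4a1*, *Col4a2*, *Col6a1*, *Col6a2*, *Col6a3*, *Col14a1*, *Lum*, *Dcn*, *Bgn*, *Lox*, *Loxl1*, *Mmp2* or *Timp1*. The remaining 5 genes had a promoter peak in 1 list. For *Lrat*, whose RNA was highest in VSG mice, a peak of 211 bp at chr3:82707876-82708086 was listed in VSG mice and covered all 150 bases printed above. Its F-seq signal, which ranks peaks within a list, was at percentile 7.85 of the VSG list. *Sparc*, whose RNA was also highest in VSG mice, had a VSG peak at chr11:55233363-55233536, at percentile 4.79, and *Timp2* one at chr11:118216604-118216818, at percentile 37.9. The *Lrat* and *Sparc* peaks were thus among the weakest of the VSG list.

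In the Sham list, *Hgf* had a promoter peak at chr5:16059153-16059505, at percentile 11.2, and *Ctgf* one at chr10:24315064-24315352, at percentile 10.9. Both covered the whole windows printed above, with the 3 GGAATG matches of *Ctgf* inside the peak. The mean RNA level of both genes was lower in Sham than in Control mice. A second *Ctgf* peak, about 4.1 kb before the start, was listed in all 3 groups, at percentiles 42.3 to 50.5. The *Ecm1* promoter peak covered 141 of the 150 printed bases in Control and all of them in Sham and VSG mice, at percentiles 4.50, 15.3 and 34.3, so that the peak was listed in the group with the lowest *Ecm1* RNA too. Of the *Col1a1* and *Col3a1* windows no base lay in a peak, and the *Col1a1* peaks were downstream of the start, the first at chr11:94798231-94798593 in Control mice.

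Counting whole genes, 29 peaks of the Control list, 46 of the Sham list and 37 of the VSG list lay in the 38 genes, in lists of 42204, 52881 and 44539 peaks. *Col4a1* and *Col4a2*, which had no promoter peak, held 3 and 1 peaks within the gene in Control, 5 and 6 in Sham and 3 and 5 in VSG mice. In all groups *Timp3* kept a promoter peak, at percentiles 45.7 to 48.3, and an intronic peak, at percentiles 89.7 to 97.3. Its RNA was lowest in Sham mice. Of the 4 lists of variable sites that the authors deposited, with 99, 414, 175 and 61 sites, none had a site within any of the 38 genes. The share of all genes that held such a site was not counted, so this absence does not set the 38 genes apart. The nearest sites lay 48.2 kb from *Fn1* and 88.7 kb from *Pdgfra*, and both were sites more accessible in Sham than in VSG mice.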

How the data were processed

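Livers of 6 mice gave 6 RNA-seq and 6 FAIRE-seq samples. For RNA-seq, the authors aligned 50-bp reads to mm9 with TopHat2 and deposited FPKM per RefSeq transcript and mouse from Cufflinks. The labels name poly(A) RNA and the methods ribosomal RNA depletion. For FAIRE-seq, the authors aligned reads with bowtie, removed duplicates, called peaks with F-seq (feature length 250 bp) and kept those reproducible across the 2 mice, so that the deposited signal is 1 value per peak and group and can be ranked within a list only. Other deposited tables hold the authors' DESeq2 log2 fold changes and p-values, which were not used. Tool versions are not given in the sources used here.

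Transcripts (34933, of which 34046 had a RefSeq symbol by GRCm38.p6, used for names only) were summed to 24910 genes. Genes at 1 FPKM or more in at least 2 mice (9869) were fitted with limma 3.58.1 in R 4.3.3 on log2(FPKM + 1), with all 3 groups, a variance trend and Benjamini-Hochberg adjustment at 10%. Fold changes on this scale understate those of low genes. FPKM are not counts, so estimated reads rest on the spacing of low values and cover counting error only. The p-values measure the spread between these mice, and an exact two-sided permutation test of 2 against 2 cannot go below 0.333. Deviations of mice with the same number correlated at 0.118, 0.0643 and 0.0390 between groups, so the numbers were not taken as pairs. Start sites and sequences came from the mm9 (NCBIM37) annotation and genome, with a promoter peak defined as any overlap with 1000 bp on either side of a start. The genes and lists were chosen with earlier results of these data known. Values in every mouse were given for the quiescent markers, *Col1a1*, members with an unadjusted p under 0.05 or among the 3 largest changes of a comparison, and members with a promoter peak in some groups only. Of the other lists, genes called were named. Genes with the largest change were named for the other stellate, pathway and matrix lists, apart from the gene not reported, and not for every cell type list. Other genes named there were chosen after their values were seen. The fitting was tested on simulated data. Python 3.11.15, pandas 2.3.3, numpy 2.4.6 and matplotlib 3.10.9 were used. The values of 1 gene of the other pathway lists are not reported here.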

Additional observations from a re-analysis of the deposited data

How the results depend on the processing

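No listed gene passed the false discovery rate in limma under any alternative, and no named change turned direction. The number of all genes called did move. From Control to Sham mice it was 28, and 64 without a filter, 9 with a replicate block and 0 to 168 on leaving out 1 mouse. From Sham to VSG mice it was 5, and 8 with a pseudocount of 0.1 or of 0.5, 9 with only the 2 groups in the fit, 0 with the block and 0 to 76 without 1 mouse. Between Control and VSG mice it was 28, and 44 with only the 2 groups, 10 with the block and 0 to 34 without 1 mouse. The block was a pairing by number only.

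With a pseudocount of 0.1 the median log2 change of the quiescent markers was -0.44 from Control to Sham and 1.61 from Sham to VSG mice, and that of the other genes was 0.35 from Sham to VSG and 0.29 from Control to VSG mice. Without 1 mouse, the quiescent median ranged from -0.39 to -0.16 from Control to Sham, from 0.50 to 1.21 from Sham to VSG and from -0.054 to 0.50 from Control to VSG mice. For the other genes the ranges were -0.23 to 0, 0 to 0.37 and 0.08 to 0.17. Quantile normalization was not run for these medians, nor were the fits without a filter, without a variance trend or with only the 2 groups, which leave a median over all members as it is. With the 50% of peaks of highest signal, promoter peaks were listed for 6, 5 and 7 genes in Control, Sham and VSG mice. With 2 mice per group, shallow coverage of genes under 1 FPKM and FAIRE peaks combined over mice, small differences of these genes were not detectable. Large differences did not pass the false discovery rate either. *Ecm1* in Sham mice was at 0.108 of the Control mean, with a limma adjusted p of 0.159. *Rgs5* in VSG mice was at 4.31 times the Sham mean, with a limma adjusted p of 0.392.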
